A study of Mus musculus with 21 samples.

Results

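Clustered histone genes are the gene copies, named Hist1h, Hist2h, Hist3h and Hist4h for the 4 clusters they sit in, that encode the linker histone H1 and the core histones H2A, H2B, H3 and H4. They were taken by these name prefixes, and 66 of the 17516 gene symbols in the count tables matched. The members were 6 H1, 18 H2A, 17 H2B, 12 H3 and 13 H4 genes, of which 53 lie on mouse chromosome 13, 10 on chromosome 3, 2 on chromosome 11 and 1 on chromosome 6. They were followed across 21 single-cell RNA libraries of mouse OT1 cells, CD8 T cells that carry 1 transgenic T cell receptor against an ovalbumin peptide. The naive library was made before culture, on day 0. All other libraries came from cells activated with beads carrying anti-CD3 and anti-CD28, then grown without added cytokine (days 3 and 5) or with IL-2, IL-15 or a mutant IL-2 labelled IL-2v, each at 5 or 50 IU/mL (days 3, 5 and 10). Each of the 21 conditions is 1 library, so there are no replicates and no test across samples was made. Intervals below are 95% intervals that cover counting error only. The treatment field of the libraries titled IL-2 at 50 IU/mL names another interleukin, as does that of the libraries titled IL-15 at 50 IU/mL; the titles were followed. The extraction text describes sorted tumour-infiltrating cells, while the growth text describes these cultures.

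The core histones form the octamer around which DNA is wrapped, and H1 binds the linker DNA where it enters and leaves the nucleosome. Dividing cells need new histones as DNA is copied, and most clustered copies are transcribed mainly in S phase and their mRNA decays when replication ends. These mRNAs usually end in a conserved stem-loop, bound by the protein Slbp, in place of a poly(A) tail. Methods that prime on poly(A) therefore capture them incompletely, and what is captured can come from copies or transcript forms that do carry a tail. Levels here are numbers of captured molecules (unique molecular identifiers, UMIs) scaled to the library's total (CPM). Captured UMIs of different members are not a measure of their relative mRNA amounts.

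The stem-loops of 7 members are shown because the stem-loop is the known end of replication-dependent histone mRNAs, and because the forms in H4 genes differ from those in the other classes. They were read from GENCODE transcripts of the GRCm38 build, with the 16 bases of the stem-loop in capitals and up to 5 flanking bases on each side.
Hist1h2ap: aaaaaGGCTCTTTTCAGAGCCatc
Hist1h2ae: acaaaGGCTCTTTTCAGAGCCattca
Hist1h1e: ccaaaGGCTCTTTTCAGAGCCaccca
Hist1h1c: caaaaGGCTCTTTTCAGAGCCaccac
Hist1h3c: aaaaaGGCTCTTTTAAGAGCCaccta
Hist1h4d: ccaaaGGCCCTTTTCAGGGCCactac
Hist1h4i: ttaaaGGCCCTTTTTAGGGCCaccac
A stem-loop was found in the annotated transcript of 46 of the 66 members, in 8 forms. The form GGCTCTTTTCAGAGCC was present in 26 members of H1, H2A, H2B and H3, and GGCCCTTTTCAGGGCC in 7 members, all H4. The annotated transcript ended less than 100 bases past the loop in 23 members and 100 bases or more past it in the other 23. That of Hist1h2ap ended 3 bases past the loop, that of Hist1h2ae 151, that of Hist1h4d 770, that of Hist1h1c 840 and that of Hist1h1e 1153. A poly(A) signal, AATAAA or ATTAAA, lay in the last 50 bases of 17 members, Hist1h2ae and Hist1h1c among them. An annotated transcript can stop at the coding sequence, as that of Hist1h2ak does (393 bases). A missing stem-loop or signal can therefore reflect the annotation.

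The promoters of 4 members are shown because these genes lead the comparisons below. Each covers 250 bases before to 50 bases after the start in RefSeq on GRCm38.p6, and capitals mark 4 motifs on either strand, namely TATAAA (the core of a TATA box), CCAAT (the CCAAT box), ATTTGCAT (the octamer) and AAACACA (a motif of H1 promoters). None of these motifs contains another.
Hist1h1b, chr13:21780576-21780875, minus strand: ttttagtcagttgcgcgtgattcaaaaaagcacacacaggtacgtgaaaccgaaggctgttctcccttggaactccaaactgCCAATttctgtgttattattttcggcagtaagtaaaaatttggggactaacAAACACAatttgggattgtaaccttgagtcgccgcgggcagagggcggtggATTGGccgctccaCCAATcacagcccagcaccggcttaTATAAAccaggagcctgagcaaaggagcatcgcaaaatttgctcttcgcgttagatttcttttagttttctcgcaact
Hist1h2ap, chr13:21833426-21833725, minus strand: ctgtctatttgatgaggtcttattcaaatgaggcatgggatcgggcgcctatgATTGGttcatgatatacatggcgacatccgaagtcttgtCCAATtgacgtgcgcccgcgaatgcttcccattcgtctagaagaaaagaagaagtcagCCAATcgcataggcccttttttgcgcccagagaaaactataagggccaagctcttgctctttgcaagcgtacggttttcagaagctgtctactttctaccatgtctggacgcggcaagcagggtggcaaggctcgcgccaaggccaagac
Hist1h2ae, chr13:23571171-23571470, minus strand: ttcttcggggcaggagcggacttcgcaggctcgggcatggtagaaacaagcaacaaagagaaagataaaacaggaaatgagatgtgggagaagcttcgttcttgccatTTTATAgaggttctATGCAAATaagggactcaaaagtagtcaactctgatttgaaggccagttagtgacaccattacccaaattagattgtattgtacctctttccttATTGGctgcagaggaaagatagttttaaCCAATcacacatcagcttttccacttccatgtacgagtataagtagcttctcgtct
Hist1h4d, chr13:23581318-23581617, plus strand: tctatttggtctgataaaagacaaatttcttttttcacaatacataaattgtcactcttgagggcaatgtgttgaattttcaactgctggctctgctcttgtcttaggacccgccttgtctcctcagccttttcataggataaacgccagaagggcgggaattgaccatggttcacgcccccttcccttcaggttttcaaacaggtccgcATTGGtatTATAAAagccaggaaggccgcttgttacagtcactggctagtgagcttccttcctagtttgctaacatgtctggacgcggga
Among the 61 members with a promoter in the RefSeq table, CCAAT occurred in 52 (85.2%), against 37.9% of all 27025 promoters. It was present in all of the H1, H2A, H2B and H3 promoters and in 3 of 12 H4 promoters. TATAAA occurred in 34 members (55.7%, against 14.2% of all promoters). ATTTGCAT occurred in 7 H2A and 5 H2B promoters and in no other class (19.7% of members, 1.75% of all). AAACACA occurred in 8 members (13.1%, against 7.14% of all promoters), of which 5 were among the 6 H1, 2 were H2A and 1 was H2B. A match is a description of these letters and not a shown binding site. Promoter windows of neighbouring members can overlap, so 1 site can be counted for 2 members. The window of Hist1h2ae includes the annotated start of Hist1h2bg, an H2B gene on the plus strand (position 23571396). The TATAAA marked in that window reads on the strand of Hist1h2bg. The counts by class are therefore not counts of separate sites.

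Near-identical copies limit what a count for 1 member means. Of the 66 members, 62 shared at least one 50-base window with another gene, and 33 shared 50% or more of their windows. The coding sequence of Hist1h2ap (chr13:21833026-21833507, minus strand) was identical to that of Hist1h2ao over all 393 bases, differed by 3 bases from Hist1h2ad and Hist1h2ag, and 93.1% of its windows occurred elsewhere. Reads from these copies cannot be told apart within the shared windows, so values under the name Hist1h2ap are uncertain as to copy. Hist1h1b, Hist1h1a, Hist1h1t and Hist2h2be shared no window. Another annotated gene overlapped 24 members. Hist1h1e and Hist1h2be overlap on the same strand, and strand use in the counting is not given in the sources used here.

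The libraries held 3250 to 7105 cells and 10589950 to 32648496 UMIs, with median cell depths of 3016 to 5065 UMIs. For T cell genes, 93.0% to 99.5% of cells had a Cd3d UMI, 72.0% to 92.8% a Cd3e UMI and 78.9% to 97.2% a Cd3g UMI. A Cd8b1 UMI was seen in 54.5% to 92.0% of cells and a Cd8a UMI in 37.0% to 74.2%. Of the markers of other cells, Cd79b (B cells) reached 7.45% and Cd68 (myeloid cells) 7.39% of cells in the highest library, Itgam 1.66%, Cd4 1.49%, Hbb-bt 0.835% and Hba-a1 0.712%, while Cd79a, Ms4a1, Lyz2 and Csf1r stayed at or below 0.489%. Their part in the results was not tested. Cells with a UMI of Mki67 or Top2a, genes of cycling cells, made up 3.01% of the naive library, 5.21% with 5 IU/mL IL-15 on day 10, and 86.9% with 50 IU/mL IL-2v on day 3. No pair of libraries shared more than 19 cell barcodes (0.340% of the smaller library or less).

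Summed over all 66 members, clustered histone transcripts ranged 10.0-fold, from 321 CPM with 5 IU/mL IL-15 on day 10 to 3220 CPM without cytokine on day 3. The naive library stood at 464 CPM. On day 3 the sums were 1923 and 1518 under IL-2 at 5 and 50 IU/mL, 2634 and 2509 under IL-2v, and 1570 and 1346 under IL-15. On day 5 they were 781 without cytokine, 1333 and 2041 under IL-2, 2908 and 3117 under IL-2v, and 1639 and 1416 under IL-15. On day 10 they were 682 and 568 under IL-2, 2681 and 1636 under IL-2v, and 321 and 492 under IL-15. The IL-2v libraries were the highest among those with cytokine on each of the 3 days. On day 3 the library without cytokine stood above all of them. Without Hist1h2ap it did not: the other 65 members were at 1462 CPM there and at 1616 with 5 IU/mL IL-2v.

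**Figure D1:**
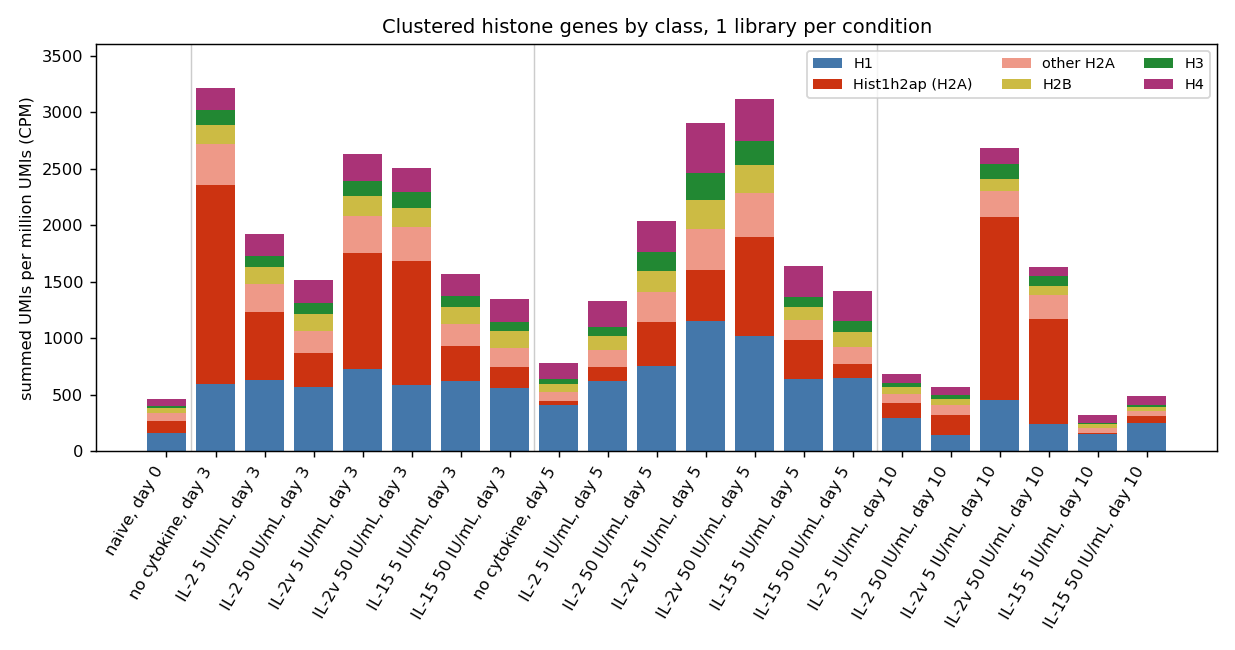
Summed CPM of the clustered histone genes in each of the 21 libraries (vertical axis, linear from 0), stacked by histone class with Hist1h2ap set apart from the other H2A genes. The red Hist1h2ap segment makes up 54.6% of the bar without cytokine on day 3 and 60.4% with 5 IU/mL IL-2v on day 10, but 2.75% with 5 IU/mL IL-15 on day 10.

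Captured UMIs were concentrated in few members. Hist1h2ap held 32.4% of the 779693 member UMIs, Hist1h1b 12.0%, Hist1h1e 10.4%, Hist1h4d 6.0%, Hist1h2ae 5.41% and Hist1h1c 4.82%. A level of 20 CPM in at least 1 library was reached by 29 members, while 37 never reached it and 8 stayed under 1 CPM throughout. Those 29 were 5 H1, 7 H2A, 8 H2B, 5 H3 and 4 H4 genes. Of the 66 members, 54 had their highest level in an IL-2v library, 33 of them with 5 IU/mL on day 5. With 5 IU/mL IL-15 on day 10, 33 members were lower than in any other library, and 41 were at their lowest when ties at 0 UMIs are counted. Members of very few UMIs are among these 66, such as Hist1h2bq with 3 over all libraries. Of the 29 that reached 20 CPM, 15 were highest with IL-2v at 5 IU/mL and 8 at 50 IU/mL, both on day 5. Of these 29, 17 were lowest with 5 IU/mL IL-15 on day 10. Such counts over all genes are not given, so they have no background here.

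Among the linker histones, Hist1h1b covered the widest range and Hist1h1c the narrowest. Hist1h1b, which encodes H1.5, was at 16.5 CPM in naive cells and at 276 without cytokine on day 3. Its other day 3 values ran from 249 (50 IU/mL IL-2) to 342 (5 IU/mL IL-2v). On day 5 it stood at 87.4 without cytokine, at 165 and 247 under IL-2, at 447 and 387 under IL-2v, and at 275 and 212 under IL-15. On day 10 it was 79.7 and 21.1 under IL-2, 219 and 59.0 under IL-2v, and 0.858 and 58.5 under IL-15. The value of 0.858 CPM for Hist1h1b is the lowest of any H1 gene that reached 20 CPM elsewhere.
Hist1h1e (H1.4) was at 64.8 CPM in naive cells, between 157 and 204 on day 3, between 143 and 380 on day 5, and between 52.9 and 131 on day 10. Its day 5 levels with IL-2v (373 and 380) were the highest. Hist1h1c (H1.2) was at 54.7 CPM in naive cells and stayed between 45.0 (50 IU/mL IL-2v, day 10) and 161 (5 IU/mL IL-2v, day 5). In the nearly non-cycling library with 5 IU/mL IL-15 on day 10, Hist1h1c stood at 72.4 CPM, above its naive level, while Hist1h1b was nearly absent. Hist1h1d (H1.3) ran from 8.87 CPM (50 IU/mL IL-2, day 10) through a median of 58.1 to 132 (5 IU/mL IL-2v, day 5). Hist1h1a (H1.1) ran from 1.67 through 19.1 to 41.4 CPM. The testis form Hist1h1t never passed 0.511 CPM.

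Hist1h2ap had the highest mean level of the H2A class and had another order over the libraries. It did not lead the class in every library: with 5 IU/mL IL-15 on day 10 it was at 8.84 CPM and Hist3h2a at 19.7. Hist1h2ap stood at 109 CPM in naive cells and at 1758 without cytokine on day 3. The day 3 values with cytokine were 598 and 296 under IL-2, 1019 and 1096 under IL-2v, and 313 and 184 under IL-15. On day 5 they were 30.3 without cytokine, 126 and 395 under IL-2, 456 and 876 under IL-2v, and 351 and 124 under IL-15. On day 10 they were 136 and 183 under IL-2, 1619 and 931 under IL-2v, and 8.84 and 63.1 under IL-15. Its highest levels were those without cytokine on day 3 and with 5 IU/mL IL-2v on day 10, and its lowest that with 5 IU/mL IL-15 on day 10.
Hist1h2ae followed it, with 19.2 CPM in naive cells, 235 without cytokine on day 3, 128 and 135 under IL-2v on day 10, and a lowest value of 3.69 with 5 IU/mL IL-15 on day 10. It shares 43.2% of its windows with other genes. The ratio of Hist1h2ap to Hist1h2ae was not constant: it ran from 2.07 (no cytokine, day 5) to 12.6 (5 IU/mL IL-2v, day 10). The other H2A genes that reached 20 CPM were Hist2h2ac (8.67 to 63.1 CPM), Hist2h2aa1 (5.21 to 40.5), Hist1h2ac (2.33 to 41.1), Hist1h2ab (0.172 to 35.2) and Hist1h2ak (0.901 to 28.2). Without Hist1h2ap the H2A sum ranged 8.78-fold over the libraries, against 40.4-fold with it.

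The H2B, H3 and H4 sums were each highest with 5 IU/mL IL-2v on day 5. The H2B sum ranged from 32.5 to 255 CPM, and its members ran as follows: Hist1h2be from 4.82 to 46.3, Hist1h2bm from 0.429 to 41.5, Hist1h2bb from 0.987 to 31.2, Hist1h2bj from 0.944 to 28.2, Hist1h2bc from 2.53 to 21.4, Hist1h2br from 1.5 to 21 and Hist2h2bb from 2.06 to 23.5. Hist3h2ba went another way: it was highest without cytokine on day 5 (20.1 CPM) and lowest with 5 IU/mL IL-2v on day 10 (1.44 CPM). The H3 sum ranged from 13.2 to 243 CPM. Hist1h3c ran from 0 UMIs with 5 IU/mL IL-15 on day 10, where the level of 3 UMIs is 0.129 CPM, to 87.7 CPM with 5 IU/mL IL-2v on day 5. Hist1h3e ran from 2.54 to 52.7 CPM, Hist1h3f from 1.84 to 27.5, Hist1h3a from 1.67 to 21.3 and Hist1h3b from 0 to 20.1.
The H4 sum ranged from 65.7 to 443 CPM, the narrowest span of the classes (6.75-fold). Hist1h4d, its leading gene, was at 18.6 CPM in naive cells, 59.7 to 97.6 on day 3, 90.2 to 292 on day 5 and 25.3 to 69.3 on day 10. All 6 of its day 5 levels with cytokine lay above each of its day 3 levels. Hist1h4i, in contrast, was highest on day 3 (63.8 CPM with 50 IU/mL IL-2) and lowest with 5 IU/mL IL-15 on day 10 (6.86 CPM). Hist1h4h ran from 4.67 to 56.3 CPM and Hist1h4c from 2.76 to 24.0.

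**Figure D2:**
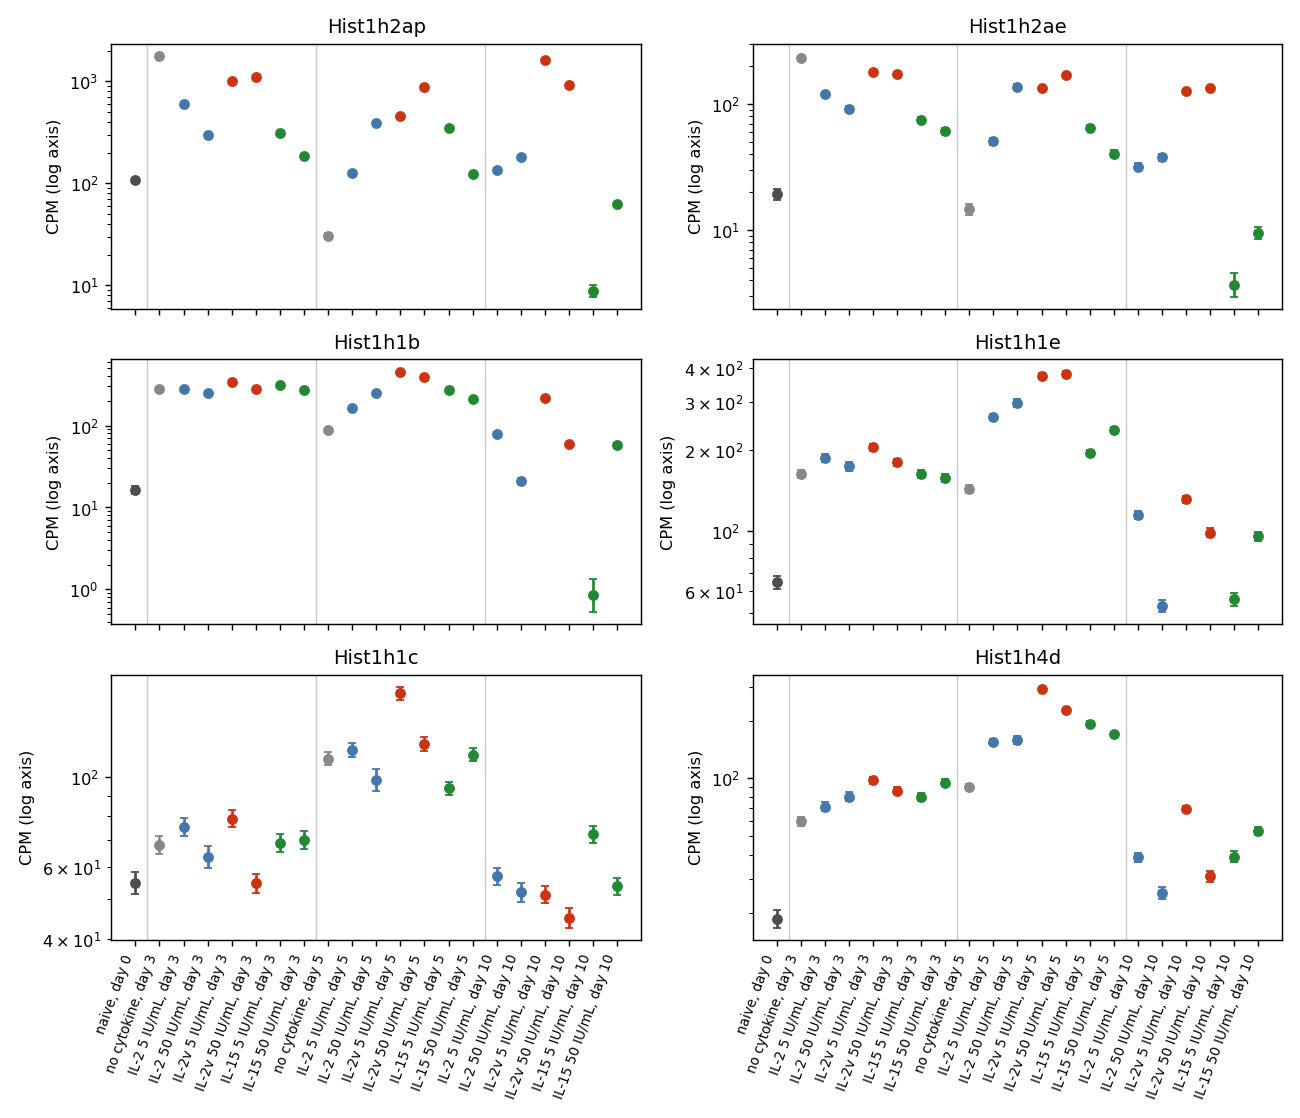
CPM of 6 leading members in each of the 21 libraries on log axes, with 95% counting intervals; naive in dark grey, no cytokine in light grey, IL-2 in blue, IL-2v in red and IL-15 in green. Hist1h2ap is at 8.84 CPM and Hist1h1b at 0.858 CPM with 5 IU/mL IL-15 on day 10, while Hist1h1c stays at 72.4 CPM there.

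**Figure D3:**
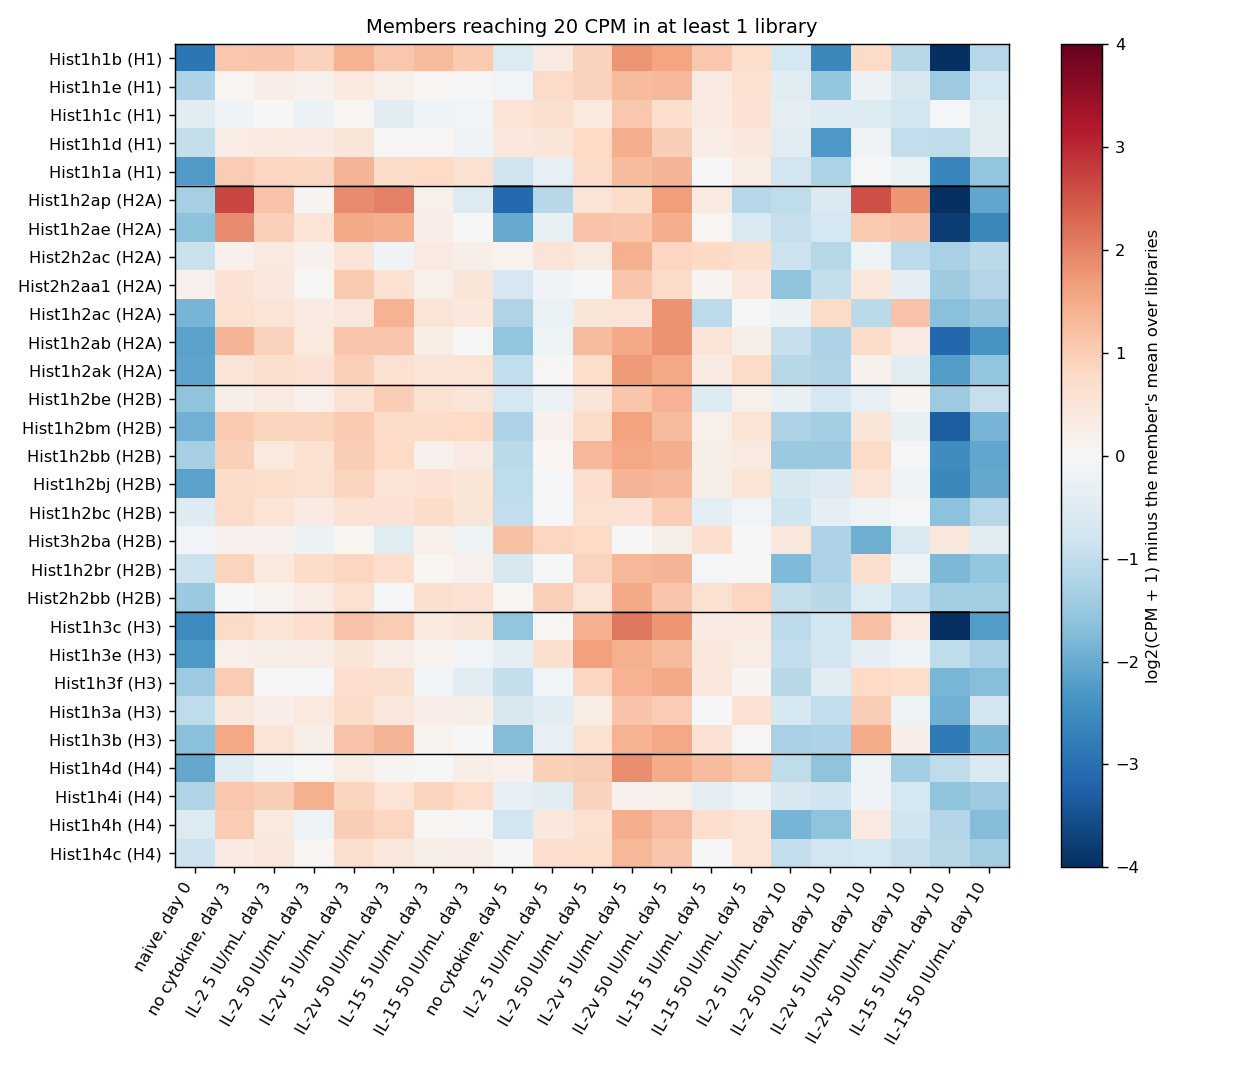
The 29 members that reached 20 CPM in at least 1 library (rows, by class) over the 21 libraries (columns), coloured by log2(CPM + 1) minus the row's mean. Most rows are darkest red with 5 IU/mL IL-2v on day 5 and darkest blue in naive cells or with 5 IU/mL IL-15 on day 10. Hist3h2ba is reddest without cytokine on day 5.

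Differences between conditions were described with a 2-fold rule on log2(CPM + 1). For 2 libraries a gene was counted as higher or lower when it had 20 CPM in either and differed by at least 2-fold; over several pairs it also had to differ in 1 direction in every pair, with a median of at least 2-fold. The share of all genes that met the same rule is given as the background for the main setting. Counts repeated below under other settings have no such share beside them. A change in them can reflect the rule as well as the members. A gene that reaches 20 CPM only on 1 side is more likely to be counted as higher on that side. This holds for members as for all genes.

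After activation, with no cytokine on day 3 against naive cells, the summed members were higher by 2.79 on the log2(CPM + 1) scale, a 6.93-fold difference (95% counting interval of the log2 value 2.76 to 2.83). Of the 17 members tested, 15 were higher and none lower, against 11.1% of all genes higher and 8.31% lower. The largest log2 differences were those of Hist1h2ap (4.0), Hist1h1b (3.99), Hist1h2ae (3.55), Hist1h2ab (3.50), Hist1h1a (3.29), Hist1h3c (3.28) and Hist1h3b (3.23). Hist1h1d (1.25), Hist1h1e (1.31) and Hist2h2ac (1.06) differed least among those counted. Without Hist1h2ap the sum was higher by 2.04, and among cells with no Mki67 or Top2a UMI by 0.58, with 3 members counted. The median of all genes tested was -0.11. The sum of the 31 S phase genes was 515 CPM in naive cells and 2583 on day 3 without cytokine, and that of the 26 genes of G2 and mitosis 149 and 3565 CPM. In sums over whole libraries such as these, more cycling cells and more histone RNA per cell cannot be told apart. Levels by group of cells are given below.

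Without cytokine, levels on day 5 lay below those on day 3. The summed members were lower by 2.04 on the log2 scale, or by 0.96 without Hist1h2ap. Of the 18 members tested, 12 were lower and none higher, where 9.47% of all genes were lower and 3.61% higher. Hist1h2ap went from 1758 to 30.3 CPM, Hist1h2ae from 235 to 14.7, Hist1h3b from 20.1 to 1.17, Hist1h2ab from 25.7 to 2.49 and Hist1h1b from 276 to 87.4. Hist1h1e (162 and 143 CPM) and Hist1h1c (68.1 and 111 CPM) did not meet the rule. The S phase sum was 651 CPM on day 5 and the G2 and mitosis sum 515 CPM, also lower than on day 3, and 13.8% of cells against 59.96% had a Mki67 or Top2a UMI. Among cells with neither UMI the histone sum was 0.25 higher on day 5. Of 19 histone chaperones tested 8 were lower and none higher, among them Chaf1a and Asf1b, which deliver new H3 and H4 to DNA, from 46.7 to 5.06 and from 50.0 to 8.80 CPM.

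Set against cells of the same day grown without cytokine, the members that met the rule were lower on day 3 and nearly all higher on day 5. On day 3 no member was higher with any cytokine, where the share of all genes that was higher was 0.142% and 6.45% under IL-2, 0.211% and 7.83% under IL-2v, and 0.142% and 0.819% under IL-15, at 5 and 50 IU/mL. With IL-2, 2 members were lower at 5 IU/mL (0.106% of all genes) and 4 at 50 IU/mL (2.74%). With IL-15, 4 were lower at 5 IU/mL (0.285% of all genes) and 4 at 50 IU/mL (0.261%). With IL-2v, none was lower at 5 IU/mL (0.0704%) or 50 IU/mL (1.75%). Hist1h2ap and Hist1h3b, an H3 gene, were among the lower members in all 4 IL-2 and IL-15 libraries, and Hist1h2ae in 3 of them. Hist1h2ap was lower than without cytokine by 1.56 and 2.57 on the log2 scale with IL-2 and by 2.49 and 3.25 under IL-15. With IL-2v it was also below the level without cytokine, by less than 2-fold (-0.79 and -0.68). On day 5, in contrast, 5 and 13 members were higher with IL-2 (2.14% and 16.5% of all genes), 23 and 22 under IL-2v (9.75% and 21.1%), and 6 and 6 under IL-15 (1.42% and 5.82%), each at 5 and 50 IU/mL. The members tested numbered 12 and 18 under IL-2, 26 and 27 under IL-2v, and 12 and 14 under IL-15, and 17 to 20 in the day 3 libraries. Hist1h2ap, Hist1h2ae, Hist1h3c and Hist1h4h were higher in all 6 of these libraries. The shares of all genes that were lower were 0.360% and 7.54% for IL-2, 5.53% for IL-2v at 50 IU/mL and 0.321% for IL-15 at 5 IU/mL, and no member was lower in these 4 libraries. The sole lower member was Hist3h2ba, under IL-2v at 5 IU/mL (2.62% of all genes lower) and IL-15 at 50 IU/mL (1.90%). All of these comparisons on 1 day share 1 library without cytokine.

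IL-2v against IL-2, in 6 pairs of equal day and dose, gave higher histone levels in every pair. The summed members differed by a median of 0.92 on the log2 scale, from 0.45 (5 IU/mL, day 3) to 1.97 (5 IU/mL, day 10), and by a median of 0.66 (0.21 to 1.02) without Hist1h2ap. Of the 19 members tested, 5 were higher and none lower, against 1.04% of all genes higher and 0.274% lower. They were Hist1h2ap (median 1.87), Hist1h2ae (1.14), Hist1h2ab (1.14), Hist1h1b (1.04) and Hist1h2bb (1.01). By pair, Hist1h2ap was 1.70-fold and 3.71-fold higher with IL-2v on day 3, 3.63-fold and 2.22-fold on day 5, and 11.9-fold and 5.08-fold on day 10, at 5 and 50 IU/mL. By class the median differences were 1.54 for H2A, 0.75 for H3, 0.64 for H2B, 0.54 for H1 and 0.37 for H4, higher in all 6 pairs for each class. The H2A sum includes Hist1h2ap, which had the largest median of the 5 members counted, so its place in this order is not that of H2A genes at large. Over all genes the median was 0.06. The S phase sum was also higher in 6 of 6 pairs (median 0.83) and so was the G2 and mitosis sum (0.77), and the share of cells with a Mki67 or Top2a UMI was higher with IL-2v in each pair, for example 40.6% against 18.2% at 5 IU/mL on day 10. Among cells with no Mki67 or Top2a UMI, the median difference of the histone sum was -0.06 and no member met the rule. The count of 5 was 9 without day 3, 2 without day 5 and 1 without day 10. It was 3 with trimmed-mean (TMM) scaling and 2 with the mean of single-cell CPM or with a pseudocount of 10. With a day left out fewer pairs had to share 1 direction, and the share of all genes under these settings is not given. Of the S phase genes, 12 of 29 tested were higher with IL-2v, and of the 20 chaperones tested 1, Asf1b.

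IL-15 against IL-2 gave no member higher or lower over the 6 pairs, of 11 tested, with 0.490% of all genes higher and 1.70% lower. The summed members were lower with IL-15 in 5 of 6 pairs (median -0.25, from -1.08 to 0.30). Hist1h2ap itself was lower with IL-15 in 5 pairs and higher in 1: on day 5 at 5 IU/mL it was at 351 CPM with IL-15 and 126 under IL-2. On day 10 Hist1h1b took opposite directions at the 2 doses. At 5 IU/mL it was at 0.858 CPM with IL-15 and 79.7 under IL-2, and at 50 IU/mL at 58.5 with IL-15 and 21.1 under IL-2.

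IL-2v against IL-15 gave higher sums in 6 of 6 pairs, by a median of 1.02 (0.75 to 3.06), and by 0.76 without Hist1h2ap. Of 19 members tested 6 were higher and none lower, where 2.48% of all genes were higher and 0.585% lower. They were Hist1h2ap (median 2.69), Hist1h2ae (1.77), Hist1h3c (1.61), Hist1h2ab (1.35), Hist1h2bb (1.19) and Hist1h1a (1.18). The pair on day 10 at 5 IU/mL was the widest, with Hist1h2ap at 1619 CPM with IL-2v and 8.84 with IL-15. In that pair the G2 and mitosis sums were 2787 and 73.9 CPM. The count of 6 was 11 without day 3, 3 without day 5 and 1 among cells with no Mki67 or Top2a UMI. These 3 cytokine comparisons reuse the same 18 libraries.

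**Figure D4:**
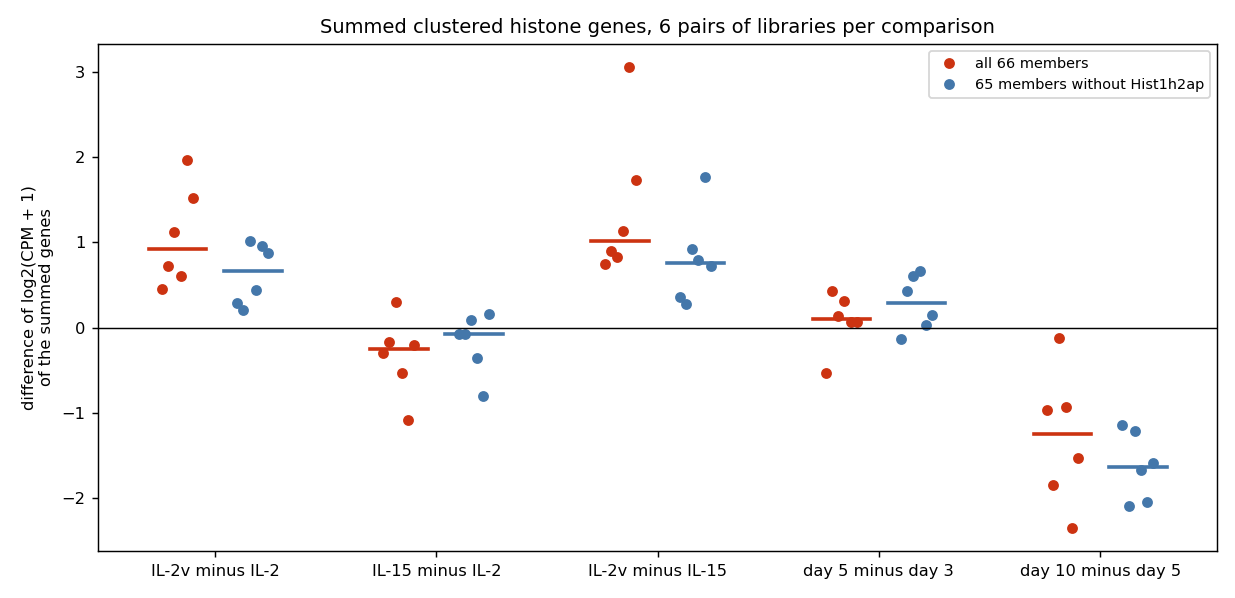
Difference of log2(CPM + 1) of the summed members for 5 comparisons, 1 point per pair of libraries and a bar at the median of 6 pairs; all 66 members in red, 65 without Hist1h2ap in blue. IL-2v lies above IL-2 and above IL-15 in all pairs with and without Hist1h2ap, and day 10 lies below day 5 in all 6 pairs.

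From 5 to 50 IU/mL the summed members differed by -0.34, 0.61 and -0.27 with IL-2, by -0.07, 0.10 and -0.71 with IL-2v, and by -0.22, -0.21 and 0.61 under IL-15, on days 3, 5 and 10. Without cells above 2 times the median UMIs, the median over days was 0.29 with IL-2 and 0.27 with IL-15, against -0.27 and -0.21 with all cells. No member met the rule for IL-2 (4.29% of all genes higher, 2.70% lower) or IL-15 (0.869% and 0.181%). For IL-2v 1 member of 20 tested did, with 2.38% of all genes higher and 0.626% lower. A count of 1 does not set the members apart from the share of all genes, and with a pseudocount of 10 no member met the rule. The member counted was Hist1h2ac, an H2A gene, at 15.8 and 31.2 CPM on day 3, 16.3 and 41.1 on day 5, and 4.75 and 25.7 on day 10. Its annotated transcript overlaps Gm24991 on the same strand over 4.35% of its length and Gm44350 on the opposite strand over 5.56%. Hist1h2ap took no common direction with dose in any cytokine: with IL-2 it was 0.495-fold, 3.14-fold and 1.35-fold of its 5 IU/mL level on days 3, 5 and 10, with IL-2v 1.08-fold, 1.92-fold and 0.575-fold, and with IL-15 0.589-fold, 0.354-fold and 7.14-fold.

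With cytokine, the histone sums of days 3 and 5 were close while most S phase genes were lower on day 5. Day 5 against day 3 gave a median of 0.11 for the sum (-0.53 to 0.43, higher in 5 of 6 conditions). Of the members, 1 of 18 tested was higher and none lower, against 0.829% of all genes higher and 2.22% lower: Hist1h4d, by a median of 1.18 (0.83 to 1.57). Without cells above 2 times the median UMIs no member met the rule and the median of the sum was -0.05, and among cells with no Mki67 or Top2a UMI 3 did, with a median of the sum of 0.61. Hist1h1c was also higher on day 5 in 6 of 6 conditions, by 0.44 to 1.13. The H4 sum was higher in 6 of 6 (median 0.46) and the H1 sum in 5 of 6 (0.30). The H4 sum includes Hist1h4d, and no sum without it was made. Of the next H4 genes by mean level, Hist1h4h was higher and Hist1h4i lower on day 5 in every condition. At 5 IU/mL IL-15, Hist1h4d was at 79.8 and 193 CPM on days 3 and 5. There Hist1h4h was at 21.1 and 31.8 CPM, and Hist1h4i at 43.8 and 17.8 CPM. Of the 29 S phase genes tested over the same pairs, 24 were lower and none higher, with a median of -1.30, and the G2 and mitosis genes had a median of -0.51. The ratio of the summed members to the summed S phase genes accordingly ran from 0.479 (50 IU/mL IL-2, day 3) to 2.28 (5 IU/mL IL-2, day 5). This ratio compares captured UMIs of 2 lists and depends on the copies that are captured.

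Day 10 against day 5 gave lower sums in all 6 conditions, by a median of 1.24 (0.12 to 2.35) on the log2 scale. Of 18 members tested 17 were lower and none higher, where 1.62% of all genes were lower and 0.0705% higher. Hist1h1b (median -2.27), Hist1h4d (-2.17), Hist1h4h (-2.13) and Hist1h2bb (-2.01) differed most, and Hist1h1c (-1.05) and Hist1h4i (-1.07) least. Hist1h2ap was the sole tested member that did not meet the rule. It was at 456 CPM on day 5 and 1619 on day 10 with 5 IU/mL IL-2v, and at 876 and 931 with 50 IU/mL IL-2v, while with 5 IU/mL IL-15 it went from 351 to 8.84. In the same IL-2v conditions the H1 sum was lower on day 10, by 1.33 and 2.10, and the H4 sum by 1.65 and 2.09. With 5 IU/mL IL-2v on day 10, Hist1h2ap was at its highest of all libraries with cytokine, while the sum of the other 65 members was 1063 CPM against 2452 on day 5. The count of 17 lower members was 11 with TMM scaling and 3 among cells with no Mki67 or Top2a UMI.

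The share that Hist1h2ap took of all member UMIs varied 21.9-fold between libraries. It was 54.6% without cytokine on day 3 and 60.4% and 56.9% with IL-2v on day 10, but 3.89% without cytokine on day 5 and 2.75% under IL-15 at 5 IU/mL on day 10. The ratio of Hist1h2ap to Hist1h1b, an H1 gene that shares no window with another gene, ran from 0.347 (no cytokine, day 5) to 15.8 (50 IU/mL IL-2v, day 10). Among the annotation groups, the 17 members with a poly(A) signal in the last 50 bases ranged 4.51-fold over the libraries, and the 49 without one 15.3-fold. The 33 members with 50% or more of their windows shared ranged 55.7-fold and the other 33 ranged 7.38-fold. Hist1h2ap belongs to the wider group in both splits. The split by poly(A) signal follows the annotated transcript ends and does not separate mRNAs with a poly(A) tail from those without.

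The Hist3 and Hist4 genes, unlike the Hist1 sum, were not higher after activation, and the Hist2 sum was higher by less. After activation the Hist1 sum was higher by 2.99 on the log2 scale and the Hist2 sum by 0.66, while the Hist3 and Hist4 sums differed by -0.17 and -0.14. Between days 3 and 5 without cytokine, the Hist1 sum was lower by 2.19, and the Hist3 sum was higher by 1.22. Hist3h2a, an H2A gene with a poly(A) signal near its annotated end, had its highest level, 19.7 CPM, with 5 IU/mL IL-15 on day 10, where 41 of the 66 members were at their lowest, ties at 0 included. Its transcript shares windows with the neighbouring Trim17 and overlaps it on the same strand over 33.0% of its length. The Hist3 and Hist4 sums rest on 2 and 1 members of low level.

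How widely histone UMIs were spread over cells differed between libraries: with each cell thinned to 2000 UMIs, the 10% of cells with the most held 28.4% of member UMIs with 50 IU/mL IL-2v on day 3 and 79.7% with 50 IU/mL IL-2v on day 10. After this thinning, which left out 57 to 393 shallower cells per library, 41.5% to 86.5% of cells had at least 1 member UMI (61.7% to 92.1% unthinned). Hist1h2ap was seen in 1.84% of cells with 5 IU/mL IL-15 on day 10 and in 66.4% with 50 IU/mL IL-2v on day 3 (3.65% and 76.7% unthinned). In naive cells 3.89% had a Hist1h2ap UMI, and the highest cell held 44. Hist1h1c was seen in 7.76% to 21.5% of thinned cells, a narrower range between libraries.

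Cells were then grouped by whether they held 3 or more UMIs of the S phase list and 3 or more of the G2 and mitosis list, neither of which contains a member. In the 19 libraries with at least 50 cells in each group, cells with both had the highest summed level in 18. The exception was 50 IU/mL IL-2v on day 3, where they stood at 2729 CPM and the cells with the G2 and mitosis list alone at 2735. Without cytokine on day 3 the values were 5478 CPM with both, 1738 with G2 and mitosis alone, 990 with S phase alone and 397 with neither. With 5 IU/mL IL-2v on day 10 they were 6715, 3806, 398 and 191 CPM. G2 and mitosis alone exceeded S phase alone in 19 of 19 libraries, and S phase alone exceeded neither in 16 of 19. These groups are set by UMI limits and were not shown to be phases of the cell cycle. In naive cells, outside the 19, the S phase list alone marked 6.06% of cells, at 304 CPM against 305 with neither. With 5 IU/mL IL-15 on day 10 it marked 6.77%, at 332 CPM against 329. The group of cells with both held 1.63% to 76.6% of the cells of these libraries and 14.9% to 88.5% of their member UMIs.

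In naive cells Hist1h2ap UMIs, more than those of the other members, lay in few cells. Of 4471 thinned naive cells, 19 (0.425%) held 3 or more UMIs of both lists; they had 18.3% of the member UMIs and 65.2% of the Hist1h2ap UMIs. Their level was 16210 CPM (95% counting interval 14955 to 17543), against 305 CPM in the 4170 cells with neither. With 5 IU/mL IL-15 on day 10 1 cell of this kind was seen.

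Levels in the group of cells with both lists also differed between libraries. This group is set by UMI limits alone and made up 1.63% to 76.6% of cells. Whether it holds a like mixture of cells in each library was not tested. In the cells with both lists, Hist1h2ap ranged 17.0-fold over the 19 libraries, from 344 CPM with 50 IU/mL IL-15 on day 3 to 5865 with 50 IU/mL IL-2v on day 10, while the other 65 members ranged 5.29-fold, from 1554 (50 IU/mL IL-2v, day 3) to 8228 CPM (5 IU/mL IL-2, day 5). On day 3 Hist1h2ap in these cells was 3065 CPM without cytokine, 1015 and 398 under IL-2, 1464 and 1174 under IL-2v, and 569 and 344 under IL-15. On day 10 it was 1057 and 2619 under IL-2, 4269 and 5865 under IL-2v, and 717 under IL-15 at 50 IU/mL. The order of the day 3 libraries by Hist1h2ap was the same within this group of cells as in the whole libraries for the highest value (no cytokine) and the lowest (50 IU/mL IL-15). The share of Hist1h2ap in the member UMIs of these cells ran from 10.6% (no cytokine, day 5) to 63.6% (5 IU/mL IL-2v, day 10). Cells with neither list still held 191 to 669 CPM of member UMIs in these libraries.

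**Figure D5:**
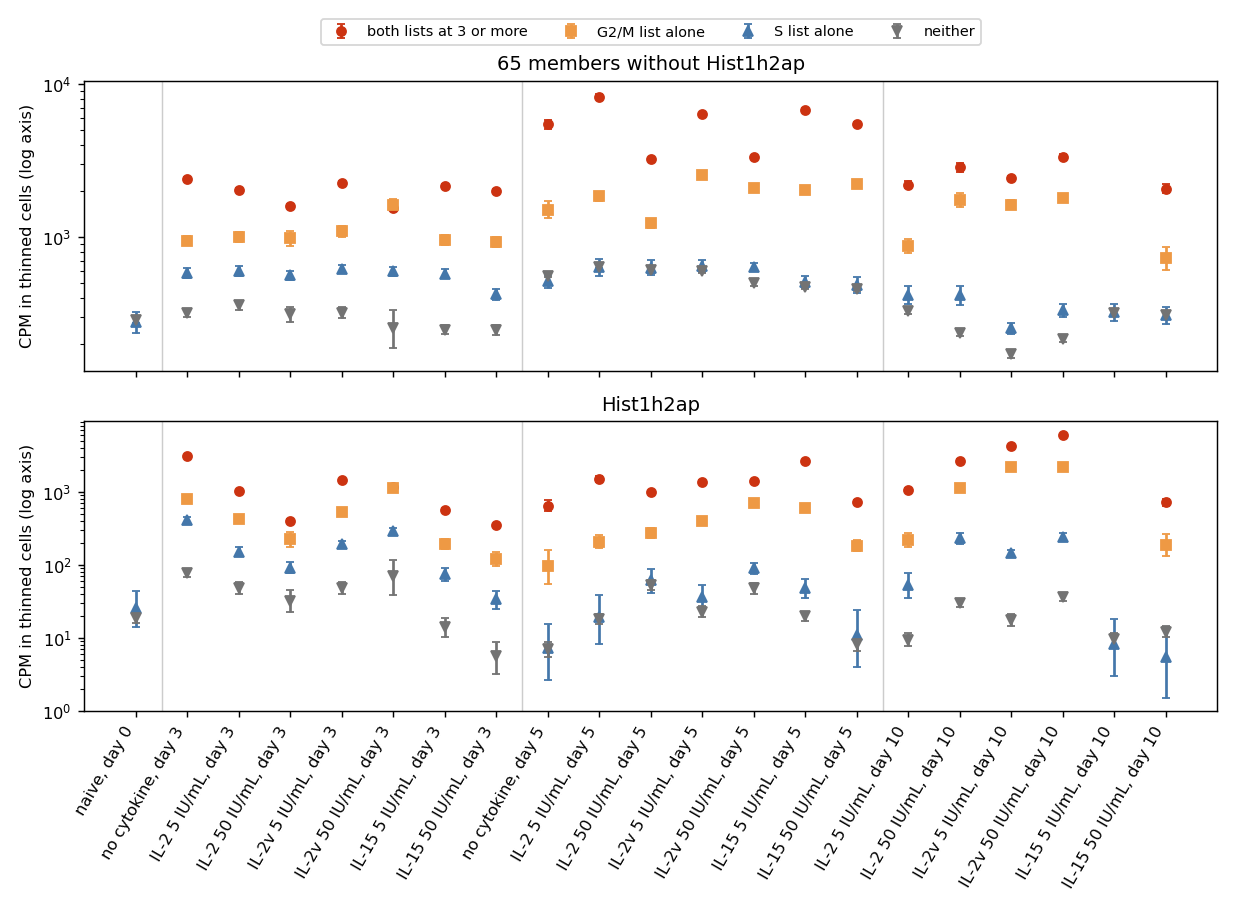
CPM of 65 members (top) and of Hist1h2ap (bottom) on log axes in cells thinned to 2000 UMIs and grouped by 3 or more UMIs of the S phase and of the G2 and mitosis list, with 95% counting intervals; groups under 50 cells are left out. Cells with both lists (red) lie highest in nearly all libraries, and Hist1h2ap in them spans 344 to 5865 CPM.

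The genes that surround histone supply were described from lists of 11 variants, 14 genes of histone mRNA transcription, end processing and decay, and 22 chaperones. Slbp, which binds the stem-loop, was at 59.3 CPM in naive cells and 127 without cytokine on day 3, the sole one of 11 tested genes of its list that was at least 2-fold higher after activation, a share near the 11.1% of all genes. Over all libraries that list ranged 2.19-fold, against 10.0-fold for the members. The transcription coactivator Npat was at 16.2 and 15.6 CPM in the same 2 libraries. The replication-independent variant genes H3f3a and H3f3b, which make H3.3 from polyadenylated mRNA, stood at 888 and 804 CPM in naive cells and at 835 and 753 on day 3 without cytokine. H2afx (37.0 and 202 CPM), Cenpa (29.2 and 256), H1f0 (6.34 and 50.4), H2afz (353 and 758) and H2afv (147 and 361) were higher on day 3. Of 20 chaperones tested 8 were higher after activation and none lower, where 11.1% of all genes were higher and 8.31% lower. Chaf1a (2.71 and 46.7 CPM) and Asf1b (6.61 and 50.0) led these 8. In the comparison of IL-2v with IL-2 no variant and no gene of the Slbp list met the rule, where 1.04% of all genes were higher and 0.274% lower. At these shares lists this short would mostly give none as well. The medians of their genes were 0.13 and 0.24.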

How the data were processed

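Single-cell RNA libraries of mouse OT1 cells were deposited as raw UMI counts per gene and cell, 1 table per library, made by the authors with Cell Ranger and Seurat (4.0.1 and 3.0.2) on mm10, per the submitters' processing notes. Counting settings for strand and multiply mapped reads are not given in the sources used here. Barcodes under 1000 UMIs or 500 genes, or above 10% mitochondrial content, were dropped (2, leaving 106456 cells), and no doublet caller was run. Counts were summed per library and divided by its total to give CPM. Differences are of log2(CPM + 1), with the 20 CPM and 2-fold rule. With 1 library per condition, no test was made, and intervals (95%) cover counting error only. Those of CPM are exact Poisson intervals. That of the log2 difference after activation is a normal approximation from the UMI counts, without the pseudocount. Groups follow the sample titles. Members that reached 20 CPM in at least 1 library, and the highest of a class, are named, and others are given by counts and ranges. Hist1h1t, Hist3h2a and the related genes given with values were named after their values were seen. The members, gene lists and comparisons were chosen with earlier results of these data known. Sequences came from GENCODE vM21 and RefSeq. Python 3.11.15, numpy 2.4.6, scipy 1.17.1, pandas 2.3.3 and, for TMM factors only, edgeR 4.0.16 in R 4.3.3 were used. The result for 1 marker gene is not reported here.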

Additional observations from a re-analysis of the deposited data

Results flagged for a closer look

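The summed H2B genes went in opposite directions from day 3 to day 5 with IL-2v and with IL-15. With IL-2v both doses were higher on day 5, by 0.52 and 0.59 on the log2 scale (median 0.56). With IL-15 both were lower on day 5, by -0.45 and -0.16 (median -0.31). These are 2 pairs of libraries against 2, and the difference was not tested.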

How the results depend on the processing

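Of the summed differences and counts of members recomputed under other settings, 153 values stayed close to those reported, 51 moved, and 2 differences that had 1 direction in every pair reversed. Other settings were also run for the shares of cells with a member UMI and for levels in another grouping of cells. That grouping went by which of the S phase and mitosis lists had more UMIs, and its levels are not reported above. Of these values, 122 moved with the thinning depth or the UMI limit and 46 stayed close. The 4 groups of cells reported above were formed only at 3 UMIs and a depth of 2000 UMIs. The dose medians and the median of day 5 against day 3, whose pairs already differed in sign, changed sign under several settings and have no stable direction. In cells where neither Mki67 nor Top2a was seen, the median of IL-2v against IL-2 was -0.056 and the difference of day 5 from day 3 without cytokine 0.25, both reversed. There the activation difference was 0.58 and day 5 against day 3 gave 0.61. The counts there were 3 for activation, 0 for IL-2v against IL-2, 1 for IL-15 against IL-2, 1 for IL-2v against IL-15, 1 for IL-2 dose, 3 for day 5 against day 3, 3 for day 10 against day 5 and 5 without cytokine. Counts by setting join higher and lower members, and the share of all genes under each setting is not given. For activation, 6171 genes were tested in the main setting and 7801 without ribosomal protein and mitochondrial genes in the totals. With a day left out, fewer pairs have to share 1 direction. A changed count, here or above, can therefore reflect the rule as well as the histone genes. With TMM scaling, activation was 2.85, day 5 without cytokine -1.93, and the counts were 3 for IL-2v against IL-2 and 11 for day 10 against day 5. With the mean of single-cell CPM, day 5 without cytokine was -2.01, and those counts were 2 and 10. Without Hist1h2ap, activation was 2.04 and day 5 without cytokine -0.96. With no expression filter the counts were 43 for activation, 11 for IL-2v against IL-15, 37 for day 10 and 32 without cytokine. With a pseudocount of 10 they were 2 for IL-2v against IL-2, 3 for IL-2v against IL-15, 0 for IL-2v dose and 10 for day 10. With totals that leave out ribosomal protein and mitochondrial genes, activation was 2.73 with a count of 23, and the count without cytokine was 20. Without cells above 2 times the median UMIs, activation was 3.19, day 5 without cytokine -2.40, IL-2 dose 0.29 and IL-15 dose 0.27 (both of the other sign than with all cells, where days already differed in sign), with counts of 1 for IL-15 against IL-2, 1 for IL-2 dose, 0 for day 5 and 11 for day 10. Without day 3 the counts were 9 for IL-2v against IL-2, 11 for IL-2v against IL-15, 1 for IL-2 dose and 2 for IL-2v dose. Without day 5 they were 2, 3, 1 and 2, and 2 for IL-15 against IL-2. Without day 10 they were 1 for IL-2v against IL-2 and 1 for IL-15 dose. Members with under 50% of windows shared, a setting chosen after seeing the data, gave 2.05 for activation and -0.89 without cytokine. The use of all barcodes and the 4 groups of cells by S phase and mitosis UMIs were also chosen after seeing the data. The cause of these shifts was not tested. The labels give no replicate numbers. Libraries were matched by day and dose, and no test over these matched pairs was made.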
